A study of Mus musculus with 207 samples.

Results

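The subject is a set of 37 mouse genes of fatty acid oxidation and of the nuclear receptor PPARα, followed in jejunum, liver and hypothalamus. The members were taken by name from a list that was chosen with earlier results of these data known. Symbols were matched to the Ensembl gene identifiers of the tables. All 37 were found among 55536 genes in jejunum and liver and among 21883 genes in hypothalamus. C57BL/6 mice had been given 1 of 6 diets, which combined a protein labelled CAS-30 or WPI-30 with fat labelled FAT-20, FAT-40 or FAT-55. The labels give no unit for these numbers and do not spell out the abbreviations, taken here to stand for casein and for whey protein isolate. They give neither the age or sex of the mice nor the length of feeding, and no genotype, so all groups share the same strain. The series asks how protein and fat in the diet together affect weight gain and tissue partitioning. Total RNA was sequenced from 70 jejunum libraries (CAS FAT-20 n = 11, CAS FAT-40 n = 12, CAS FAT-55 n = 11, and n = 12 on each WPI diet). The 70 liver libraries carried the same mouse identifiers with the same numbers per diet. For mouse L5A3 on CAS FAT-20 the liver library has another number than the jejunum library. Whether both came from 1 mouse is thus uncertain. The 67 hypothalamus libraries held 10, 12 and 11 mice on CAS and 11, 11 and 12 on WPI, in order of rising fat.

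Fatty acids are activated to acyl-CoA, carried into mitochondria by the carnitine shuttle and shortened there by rounds of dehydrogenation, hydration, a further dehydrogenation and thiolysis. Peroxisomes run a parallel chain on very long and branched acyl-CoA, and thioesterases release free fatty acids from acyl-CoA in both compartments. PPARα binds fatty acids, pairs with RXR on a direct repeat of the hexamer AGGTCA with 1 base between the copies, and is known as a main activator of most of these genes in liver during fasting and in small intestine when fat is eaten. In hypothalamus, fatty acid oxidation is a smaller activity and has been studied as part of nutrient sensing.

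Reads on genes per library came to between 17.5 and 23.8 M for jejunum, between 21 and 41 M for liver and between 14.4 and 16.1 M for hypothalamus. Levels are given in CPM, counts scaled to a fixed total of reads on genes in each library. Fold changes come from the fitted models, whose scaling between libraries can move them against the CPM. On CAS FAT-55 against FAT-20 this shift was downward in liver and upward in jejunum. It matters for small changes, as for Ppara in liver, where mean CPM rose from 236 to 250.2 while the fitted change was below 0. The 3 tables were normalised separately, so levels set side by side across tissues are descriptions without a test. A gene was called at a Benjamini-Hochberg adjusted p under 0.05, taken across the whole table of a tissue within 1 comparison, by edgeR's quasi-likelihood test in jejunum and liver and by limma in hypothalamus. In jejunum and liver the median correlation of a library with the others of its tissue was at least 0.93. In hypothalamus 4 libraries stood apart, with a median correlation under 0.9 (0.85 in CAS FAT-20 replicate 6, and 0.848, 0.896 and 0.885 in WPI FAT-20 replicates 3, 4 and 5). Markers of enterocytes in jejunum, of hepatocytes in liver and of hypothalamic neurons in hypothalamus were high in all libraries, with a summed level of at least 23549, 81093 and 2152 CPM. The hypothalamus libraries also held thalamus markers at a summed 380.3 to 1468 CPM. Liver WPI FAT-40 replicate 2 held pancreatic acinar markers at a summed 1365 CPM, against at most 44.2 CPM in the other liver libraries. Mouse identifiers that differ only in their last digit form 24 groups of up to 3 mice, here called identifier groups. The labels do not say what those mice share, and the tests below treat each mouse as independent.

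The promoters of 4 members are shown because their genes moved most in 1 tissue or hold the hexamer: Ehhadh fell most in liver, Acot3 rose most in jejunum, Acot4 is its neighbour, and Creb3l3 encodes a transcription factor. Sequences are from RefSeq on GRCm38.p6, 5′ to 3′ along the gene, from 250 bases before the start to 50 after it. Capitals mark AGGTCA or its reverse complement TGACCT. The Ehhadh promoter (chr16:21787785-21788084, minus strand) holds no copy, the Acot3 promoter (chr12:84051894-84052193, plus strand) holds 1 at transcribed base 19, the Acot4 promoter (chr12:84038129-84038428, plus strand) holds 1 that begins 13 bases before the start, and the Creb3l3 promoter (chr10:81092542-81092841, minus strand) holds 1 that begins 202 bases before it.
Ehhadh: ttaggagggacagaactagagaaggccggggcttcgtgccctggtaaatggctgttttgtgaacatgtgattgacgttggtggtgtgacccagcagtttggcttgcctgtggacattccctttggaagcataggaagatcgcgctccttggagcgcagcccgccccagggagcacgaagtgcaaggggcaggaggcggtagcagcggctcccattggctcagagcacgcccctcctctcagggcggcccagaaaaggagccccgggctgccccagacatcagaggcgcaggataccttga
Acot3: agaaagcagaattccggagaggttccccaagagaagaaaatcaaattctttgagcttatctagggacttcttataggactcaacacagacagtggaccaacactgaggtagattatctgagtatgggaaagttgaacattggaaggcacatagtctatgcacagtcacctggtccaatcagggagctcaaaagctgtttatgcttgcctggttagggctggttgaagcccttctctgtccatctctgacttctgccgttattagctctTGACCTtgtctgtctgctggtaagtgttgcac
Acot4: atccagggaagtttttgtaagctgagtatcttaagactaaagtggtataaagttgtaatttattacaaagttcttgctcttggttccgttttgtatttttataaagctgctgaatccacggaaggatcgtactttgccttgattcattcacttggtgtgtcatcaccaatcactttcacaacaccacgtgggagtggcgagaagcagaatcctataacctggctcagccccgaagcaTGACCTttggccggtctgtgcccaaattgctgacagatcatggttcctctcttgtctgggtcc
Creb3l3: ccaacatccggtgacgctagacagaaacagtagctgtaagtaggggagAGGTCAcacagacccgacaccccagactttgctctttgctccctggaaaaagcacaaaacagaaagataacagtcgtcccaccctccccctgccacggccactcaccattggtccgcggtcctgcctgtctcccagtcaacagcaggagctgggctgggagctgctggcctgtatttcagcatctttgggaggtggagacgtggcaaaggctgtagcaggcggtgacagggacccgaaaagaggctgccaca
RefSeq promoters of that length were matched for 31 of the 37 members, as 35 promoters. The hexamer, searched on both strands, stood in 8 of these 35 promoters, those of Acadm, Acadvl, Acot3, Acot4, Cpt1a, Creb3l3 and Echs1, and in 16.3% of 32851 mouse promoters of the same length. The exact direct repeat AGGTCANAGGTCA, which contains the hexamer on either side of 1 free base, stood in 0.0396% of all promoters and in none of the member promoters. A match describes letters in this window only. No promoter was matched for Hsd17b4, Acaa2, Crat, Decr1, Cpt1b and Vnn1.

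Levels of the regulators and of the carnitine shuttle are given as the mean over the 6 diets with the lowest and highest diet mean in brackets. Ppara, the fatty acid receptor itself, averaged 57.4 CPM in jejunum (36.4 to 76.8), 239 in liver (229 to 250.2) and 3.07 in hypothalamus (2.77 to 3.36). Creb3l3, a membrane-bound transcription factor of liver and intestine that works with PPARα, averaged 729 CPM in jejunum (568 to 883), 351 in liver (331 to 383) and 0.723 in hypothalamus (0.539 to 0.947). Pdk4, the kinase that blocks pyruvate entry into the citric acid cycle, averaged 63.2 CPM in jejunum (40.7 to 92.3), 11.9 in liver (8.84 to 22.1) and 10.2 in hypothalamus (9.05 to 11.8). Acsl1, which activates long-chain fatty acids, averaged 90.2 CPM in jejunum (75.4 to 102), 2249 in liver (1725 to 2903) and 47.5 in hypothalamus (41.4 to 51.2). Cpt1a, the rate-controlling step of mitochondrial entry, averaged 189 CPM in jejunum (179 to 206), 865 in liver (813 to 932) and 42.9 in hypothalamus (36.7 to 45.3). Cpt1b, its muscle form, averaged 0.764 CPM in jejunum (0.679 to 0.841), 0.263 in liver (0.204 to 0.361) and 0.122 in hypothalamus (0.0964 to 0.136), and 81.4% of its exon bases are shared with the same-strand gene Gm44502, so its counts are uncertain. Cpt2, which reforms acyl-CoA inside the mitochondrion, averaged 141 CPM in jejunum (117 to 162), 216 in liver (198 to 231) and 13.5 in hypothalamus (12.8 to 14.5). Slc25a20, the carnitine carrier, averaged 86.2 CPM in jejunum (73.1 to 106), 163 in liver (142 to 187) and 16.8 in hypothalamus (14.8 to 20.1). Crat, which moves acetyl groups between carnitine and CoA, averaged 188 CPM in jejunum (146 to 224), 114 in liver (83.1 to 159) and 43.2 in hypothalamus (38.5 to 45.9). Ppara, Acsl1, Cpt1a, Cpt2 and Slc25a20 thus averaged higher in liver than in jejunum, and Creb3l3, Pdk4, Crat and the scarcely detected Cpt1b higher in jejunum.

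Among mitochondrial enzymes the 4 acyl-CoA dehydrogenases act on falling chain lengths. Acadvl (very long chains) averaged 112 CPM in jejunum (94.6 to 127), 202 in liver (177 to 230.1) and 32.1 in hypothalamus (29.5 to 34.3), with 42.9% of its exon bases covered by the opposite-strand gene Dvl2. Acadl (long chains) averaged 219.6 CPM in jejunum (156 to 322), 312 in liver (272 to 357) and 42.8 in hypothalamus (39.8 to 44.6). Acadm (medium chains) averaged 194 CPM in jejunum (174 to 210.4), 562 in liver (488 to 629.6) and 41.6 in hypothalamus (37.1 to 48.8). Acads (short chains) averaged 86.5 CPM in jejunum (73.5 to 95), 181 in liver (169 to 199) and 12.7 in hypothalamus (11.6 to 13.8). The next steps are run by Echs1, the short-chain hydratase, at 104 CPM in jejunum (100.5 to 112), 229 in liver (199.5 to 250.4) and 53.4 in hypothalamus (46 to 63.5), and by Hadh, the short-chain hydroxyacyl-CoA dehydrogenase, at 964 CPM in jejunum (828 to 1053), 471 in liver (408 to 543) and 29.6 in hypothalamus (26.1 to 35.1). Hadha and Hadhb encode the α and β subunits of the trifunctional protein for long chains. Hadha averaged 386 CPM in jejunum (349 to 433), 545 in liver (442 to 668) and 88.4 in hypothalamus (84.2 to 92.4). Hadhb averaged 221 CPM in jejunum (209 to 235), 290 in liver (225 to 355) and 71.2 in hypothalamus (67.4 to 75.6). Acaa2, the mitochondrial thiolase, averaged 273 CPM in jejunum (205 to 349), 907 in liver (812 to 987) and 29.9 in hypothalamus (26.5 to 34.7). Eci1 and Decr1 handle unsaturated chains. Eci1, an isomerase, averaged 68.5 CPM in jejunum (60.4 to 73.4), 149 in liver (132 to 159.9) and 26.3 in hypothalamus (21.8 to 32.8). Decr1, a reductase, averaged 175 CPM in jejunum (156 to 191), 273 in liver (242 to 307) and 20.6 in hypothalamus (18.9 to 23.3). Electrons leave through the flavoprotein ETF and its dehydrogenase. Etfa averaged 218 CPM in jejunum (193 to 242), 322 in liver (315 to 331) and 42.2 in hypothalamus (35.8 to 53). Etfb averaged 4.85 CPM in jejunum (4.08 to 5.93), 6.43 in liver (5.83 to 7.12) and 0.666 in hypothalamus (0.529 to 0.839), and 53% of its exon bases are shared with the same-strand gene Gm45233. The Etfb counts are thus uncertain in all tissues. Etfdh averaged 150.3 CPM in jejunum (134 to 163), 439.9 in liver (384 to 512) and 27.6 in hypothalamus (26.9 to 29.2).

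In the peroxisomal chain, Ehhadh and Hsd17b4 are the bifunctional enzymes for straight and branched acyl-CoA. Ehhadh averaged 163 CPM in jejunum (127 to 191), 1039 in liver (460.1 to 2152) and 4.67 in hypothalamus (4.32 to 4.99), the widest span between diets among the members above 100 CPM in liver. Hsd17b4 averaged 398 CPM in jejunum (271 to 516), 694 in liver (623 to 769) and 77.7 in hypothalamus (74.5 to 84.4). Acaa1a and Acaa1b are near-identical thiolases, so reads shared by both copies make their counts uncertain. Acaa1a averaged 338 CPM in jejunum (303 to 363), 262 in liver (232 to 294) and 82.4 in hypothalamus (79.8 to 86.1). Acaa1b averaged 42.9 CPM in jejunum (23.7 to 59.4), 1643 in liver (1200.5 to 1997) and 0.976 in hypothalamus (0.819 to 1.17). Eci2, the peroxisomal isomerase, averaged 58.9 CPM in jejunum (53.9 to 65.1), 211 in liver (176 to 256) and 24.3 in hypothalamus (24 to 24.8). Decr2, the peroxisomal reductase, averaged 67.8 CPM in jejunum (59.4 to 74.9), 315 in liver (295 to 326) and 32.8 in hypothalamus (30.7 to 35.6). Pex11a, a membrane protein of peroxisome division, averaged 64.8 CPM in jejunum (54.7 to 77.5), 179 in liver (153 to 214) and 9.83 in hypothalamus (8.94 to 10.8). Acot8, a peroxisomal thioesterase, averaged 27.5 CPM in jejunum (23.5 to 31), 14.6 in liver (12.7 to 17.1) and 13.8 in hypothalamus (12.8 to 14.5). The remaining thioesterases Acot1 to Acot4 are neighbouring near-identical copies, and their counts are likewise uncertain. Acot1 (cytosol) averaged 17.5 CPM in jejunum (13 to 29), 69.6 in liver (34.9 to 128) and 14.7 in hypothalamus (11 to 17.7). Acot2 (mitochondrion) averaged 8.63 CPM in jejunum (7.20 to 11.8), 12.9 in liver (7.98 to 18.6) and 8.44 in hypothalamus (6.84 to 10). Acot3 (peroxisome) averaged 0.518 CPM in jejunum (0.0277 to 1.58), 67.3 in liver (49 to 86.7) and 0.779 in hypothalamus (0.492 to 0.964). Acot4 (peroxisome) averaged 50.8 CPM in jejunum (32.5 to 71.9), 185 in liver (158 to 210) and 1.90 in hypothalamus (1.57 to 2.13). Bdh1, which interconverts the ketone bodies, averaged 123 CPM in jejunum (109.7 to 139), 342 in liver (321 to 369) and 39.6 in hypothalamus (37.6 to 42.2). Vnn1, a pantetheinase that recycles the vitamin part of CoA, averaged 125 CPM in jejunum (103 to 138), 156 in liver (123 to 209) and 0.212 in hypothalamus (0.155 to 0.253).

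The tissue with the highest average was liver for 30 members and jejunum for 7. Per kilobase of exon, a scale on which genes can be compared, the highest members in liver were Acaa1b at 837 CPM per kb, Acaa2 at 598 and Ehhadh at 348. In jejunum they were Creb3l3 at 242, Hadh at 194 and Acaa2 at 180.3 CPM per kb. In hypothalamus they were Etfa at 23, Hsd17b4 at 22.8 and Acadl at 21.4 CPM per kb. Acaa2 was thus high in both of the first tissues, and 1 of the 2 thiolase copies, Acaa1b, stood first in liver and low elsewhere.

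In liver the members that changed with dietary fat mostly fell. On FAT-55 against FAT-20, 21 of 37 fell and 3 rose on CAS (beside 20.7% of all 15051 genes lower and 22.6% higher), and 10 fell and 1 rose on WPI (12% lower and 14.6% higher). On FAT-40 against FAT-20, 24 fell and 1 rose on CAS (14.4% lower and 15.8% higher), and 15 fell and none rose on WPI (2.35% lower). The members' median log2 fold change was -0.32, -0.09, -0.39 and -0.24 in these 4 comparisons in that order, against -0.00, -0.01, -0.00 and 0.01 over all genes. Crat, Acadvl, Acadl, Hadha, Hadhb, Etfdh, Ehhadh and Acot1 fell in all 4. Ppara, Cpt1a, Acads, Pex11a, Acot2, Acot3, Acot4 and Bdh1 were called in none. In bulk tissue, fewer cells of a type and less RNA per cell cannot be told apart.

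Ehhadh showed the largest fall in liver in all 4 comparisons. It ran from 794 to 3612 CPM (median 1657) on CAS FAT-20, from 357 to 542 (median 454) on CAS FAT-40 and from 474 to 734 (median 551) on CAS FAT-55. The WPI mice ran from 1241 to 3880.5 (median 2065) on WPI FAT-20, 387 to 939 (median 610.3) on WPI FAT-40 and 358 to 716 (median 523) on WPI FAT-55. Every mouse on FAT-20 was above every mouse on FAT-40 and FAT-55 of the same protein. The log2 fold change on FAT-55 was -1.86, SE 0.19, adjusted p = 3.6e-12, on CAS and -2.02, SE 0.18, adjusted p = 5.2e-13, on WPI (edgeR). On FAT-40 it was -2.11, SE 0.18, adjusted p = 3.7e-14, on CAS and -1.83, SE 0.18, adjusted p = 2.9e-11, on WPI. Within CAS FAT-20 the mice spread widely. The 3 mice of identifier group L2F, at 2707 to 3612 CPM, lay above the others, while L2B (1365 to 2044), L5A (1259 to 1841) and L2C (794 to 1331) overlapped in part. The group on FAT-40 spread far less, at 460.1 ± 54 CPM (SD, n = 12) against 1905 ± 974 CPM (SD, n = 11).

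Acot1, the cytosolic thioesterase, was next. It ran from 82.5 to 168 CPM (median 111) on CAS FAT-20, from 19.4 to 58.7 (median 29.3) on CAS FAT-40 and from 25.6 to 75.7 (median 44) on CAS FAT-55, so the CAS groups on more fat lay wholly below FAT-20. On WPI it ran from 78.1 to 155 (median 112) on WPI FAT-20, 14.9 to 64.3 (median 38.5) on WPI FAT-40 and 39.3 to 95.9 (median 48.1) on WPI FAT-55, where FAT-40 lay wholly below FAT-20 and FAT-55 overlapped it. The log2 fold change was -1.58, SE 0.21, adjusted p = 1.6e-08, on CAS FAT-55 and -1.06, SE 0.20, adjusted p = 4.4e-05, on WPI FAT-55. On FAT-40 it was -1.93, SE 0.21, adjusted p = 8.6e-11, on CAS and -1.66, SE 0.20, adjusted p = 6.7e-08, on WPI.

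Enzymes of long-chain oxidation fell by less. Hadha ran from 596 to 799 CPM (median 657) on CAS FAT-20 and from 418 to 548 (median 484) on CAS FAT-55, which do not overlap, and fell on CAS FAT-55 (log2 fold change -0.59, SE 0.06, adjusted p = 3.1e-11). Hadhb, its partner subunit, fell by like amounts, at -0.61 (adjusted p = 2.1e-11) on CAS FAT-55 and -0.72 (adjusted p = 4.5e-14) on CAS FAT-40 on the log2 scale. Acsl1 ran from 2266 to 3805 CPM (median 2807) on CAS FAT-20, 1212 to 2477 (median 1751) on CAS FAT-40 and 1299 to 2697 (median 1848) on CAS FAT-55, and fell on CAS FAT-55 (log2 fold change -0.76, SE 0.12, adjusted p = 6.5e-07) and CAS FAT-40 (log2 fold change -0.81, SE 0.12, adjusted p = 1.5e-07). On WPI its log2 fold changes were -0.06 (adjusted p = 0.74) and -0.26 (adjusted p = 0.18). Crat, Eci2, Cpt1b and Acaa1b completed the largest falls: Crat at -1.0 (adjusted p = 2.9e-08) on CAS FAT-40 and -0.65 (adjusted p = 0.00013) on WPI FAT-55, Eci2 at -0.61 (adjusted p = 3.1e-08) on CAS FAT-55, Cpt1b at -0.75 (adjusted p = 0.0079) there, and Acaa1b at -0.75 (adjusted p = 9.3e-06) on WPI FAT-40. Groups did not overlap, with FAT-20 higher, for 7 members on CAS FAT-55 (Acadvl, Hadha, Hadhb, Acaa2, Ehhadh, Eci2 and Acot1, beside 0.864% of all genes) and 6 on CAS FAT-40 (the same without Acaa2, 0.724%). On WPI it was Ehhadh alone on FAT-55 (0.179%), and Ehhadh and Acot1 on FAT-40 (0.0332%).

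A few members ran the other way in liver. Hadh, the short-chain dehydrogenase, rose on CAS FAT-55 (log2 fold change 0.29, SE 0.10, adjusted p = 0.01) and on WPI FAT-55 (log2 fold change 0.35, SE 0.09, adjusted p = 0.0033), from 408 ± 50.4 CPM (SD, n = 11) to 543 ± 44.2 CPM (SD, n = 11) on CAS. Echs1, the hydratase, rose on CAS by 0.20 (adjusted p = 0.027) on FAT-55 and 0.27 (adjusted p = 0.0035) on FAT-40. Pdk4 ran from 5.09 to 24 CPM (median 7.95) on CAS FAT-20 and from 9.15 to 42.5 (median 16.9) on CAS FAT-55 and rose by 0.82 (adjusted p = 0.036), a call lost in 11 of the fits that each leave out 1 library, with an adjusted p of 0.093 without CAS FAT-55 replicate 5. Ppara mRNA itself stood at 236 ± 32 CPM (SD, n = 11) and 250.2 ± 36.1 CPM (SD, n = 11) (log2 fold change -0.04, SE 0.11, adjusted p = 0.8), and Cpt1a at 932 ± 132 CPM (SD, n = 11) and 925 ± 165 CPM (SD, n = 11) (log2 fold change -0.13, SE 0.10, adjusted p = 0.3). Acadm fell on CAS, at -0.19 (adjusted p = 0.04) on FAT-55, a call lost in 9 of those fits, and -0.34 (adjusted p = 0.0005) on FAT-40. Acot3, not called, varied widely between mice: on WPI FAT-40 the 3 mice of identifier group M8D held 1.25 to 3.81 CPM, those of M8F 5.68 to 97.5, those of M9F 28.1 to 114 and those of M4C 32.7 to 141.

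Counts in liver changed where mice of 1 identifier group were summed: on WPI 7 members were called on FAT-55 and 4 on FAT-40. Hepatocyte markers moved with the diet on CAS, with a mean log2 CPM of 12.48 ± 0.10 on FAT-20 and 12.29 ± 0.08 on FAT-55 (SD), and 4 of 8 lower. Their median log2 fold change was -0.34 on CAS FAT-55, against -0.32 for the members, and -0.07 against -0.09 on WPI FAT-55. On FAT-40 it was -0.19 against -0.39 on CAS and -0.05 against -0.24 on WPI. Of the adipocyte list, Cidea, Cfd and Car3 could be tested and rose on CAS FAT-55, with the summed list at 289 to 2276 CPM on CAS FAT-20 and 2743 to 3886 on CAS FAT-55, while the defining markers Adipoq, Lep, Plin1 and Retn were at or near 0. The part of either list in the members' falls was not tested.

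**Figure D1:**
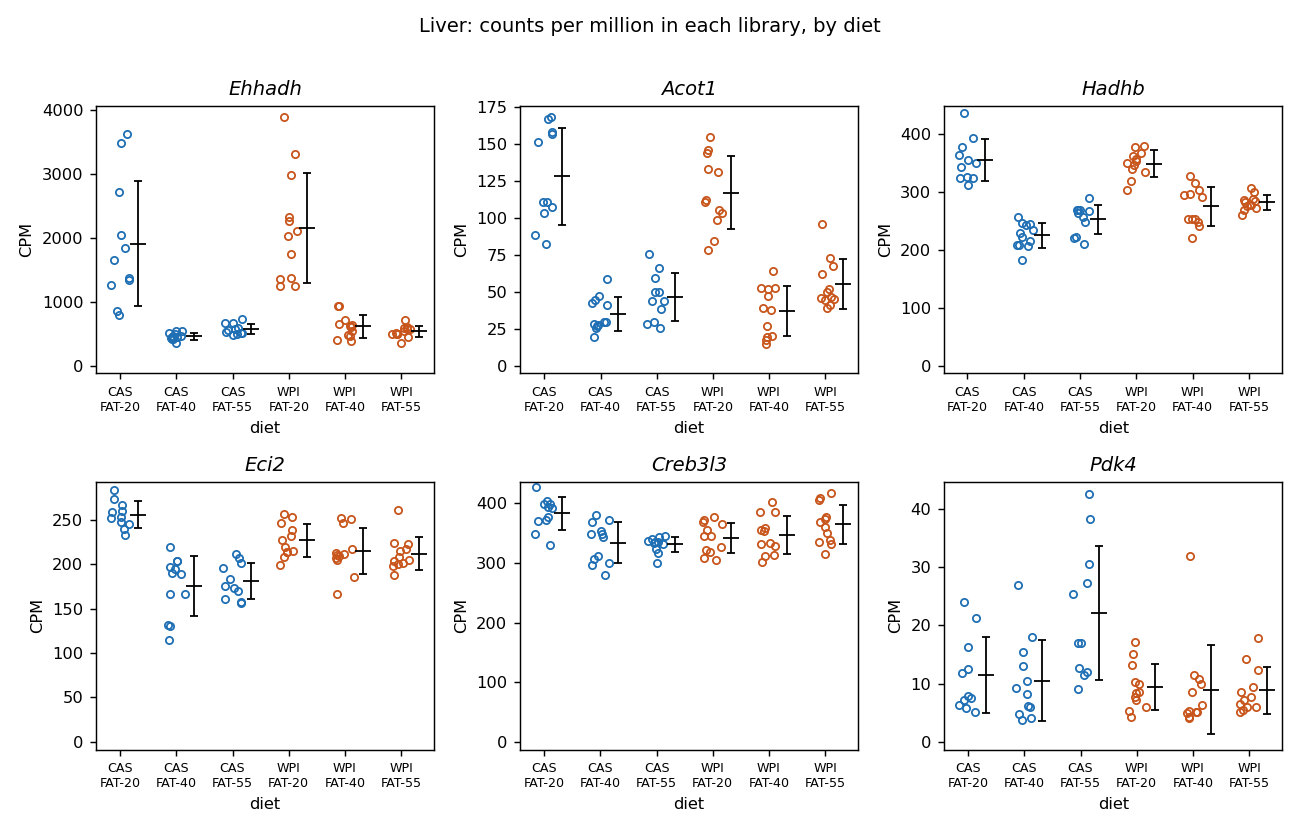
CPM in liver (vertical axis, each panel 1 gene) of every mouse by diet (horizontal axis), blue for CAS and orange for WPI, with black bars for the mean ± SD. Ehhadh and Acot1 sit lower in every group on FAT-40 and FAT-55 than on FAT-20, and Pdk4 is highest on CAS FAT-55.

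In jejunum the members that changed with dietary fat rose. On FAT-55 against FAT-20, 28 of 37 rose on CAS (beside 14.4% of all 16992 genes higher) and 27 on WPI (14.2%). On FAT-40, 21 rose on CAS (12.7%) and 11 on WPI (12.7%). None fell in any of these 4 comparisons, and 33 had a positive log2 fold change in all 4. The members' medians were 0.42, 0.36, 0.29 and 0.20 in that order, against -0.01, -0.03, -0.03 and -0.02 over all genes. Creb3l3, Crat, Hadh, Etfa, Etfdh, Ehhadh, Hsd17b4, Decr2, Acot8 and Acot3 rose in all 4, and Pdk4, Cpt1a, Cpt1b, Eci2 and Vnn1 in none. By role on CAS FAT-55, 6 of 9 regulators and shuttle genes, 13 of 14 mitochondrial enzymes, 6 of 8 peroxisomal members and 3 of the 6 others rose.

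Acot3 was close to undetected on FAT-20 and showed the largest rise. It ran from 0 to 0.130 CPM (median 0) on CAS FAT-20, 0.0434 to 1.05 (median 0.282) on CAS FAT-40 and 0.129 to 1.29 (median 0.609) on CAS FAT-55, and from 0 to 0.351 (median 0.153) on WPI FAT-20, 0 to 2.45 (median 0.160) on WPI FAT-40 and 0.522 to 3.23 (median 1.55) on WPI FAT-55. Levels were low throughout, so the fitted changes rest on few reads. In log2 they were 4.12, SE 0.72, adjusted p = 2.1e-05, on CAS FAT-55 and 3.36, SE 0.48, adjusted p = 4.7e-07, on WPI FAT-55. On FAT-40 they were 3.43, SE 0.75, adjusted p = 0.00067, on CAS and 1.65, SE 0.53, adjusted p = 0.016, on WPI. The last of these rested on WPI FAT-40 replicate 12, without which it was 0.86 with an adjusted p of 0.23. All mice on WPI FAT-55 lay above all mice on WPI FAT-20.

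Other large rises included peroxisomal enzymes and Creb3l3. Acaa1b ran from 4.65 to 45.5 CPM (median 24.7) on CAS FAT-20 and 21.2 to 83.3 (median 46.5) on CAS FAT-55 and rose by 1.15 (adjusted p = 0.00078) on CAS FAT-55 and 0.76 (adjusted p = 0.014) on WPI FAT-55 on the log2 scale. Hsd17b4 ran from 173 to 352 CPM (median 264) on CAS FAT-20, 321 to 484 (median 414) on CAS FAT-40 and 313 to 539.6 (median 461) on CAS FAT-55, with overlap between FAT-20 and FAT-55. It rose on CAS FAT-55 (log2 fold change 0.80, SE 0.11, adjusted p = 4.1e-07) and on WPI FAT-55 (log2 fold change 0.67, SE 0.11, adjusted p = 3.1e-06). Ehhadh, the gene that fell most in liver, ran in jejunum from 78.1 to 179 (median 132) on CAS FAT-20 and 128 to 236 (median 174) on CAS FAT-55, and rose on CAS FAT-55 (log2 fold change 0.65, SE 0.12, adjusted p = 5.1e-05) and WPI FAT-55 (log2 fold change 0.66, SE 0.12, adjusted p = 1.1e-05). Creb3l3 rose by 0.51 (adjusted p = 0.0022) on CAS FAT-55 and 0.58 (adjusted p = 0.00022) on WPI FAT-55, from 568 ± 89.2 CPM (SD, n = 11) to 760 ± 98.2 CPM (SD, n = 11) on CAS. Acaa2 rose by 0.74 (adjusted p = 0.00032) on CAS FAT-55, and Acadl, the long-chain dehydrogenase, by 0.83 (adjusted p = 1.9e-05) on WPI FAT-55.

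Ppara mRNA rose on CAS and was already higher on WPI at FAT-20, as given further on. It ran from 21.4 to 51.4 CPM (median 32.5) on CAS FAT-20, 46.6 to 77.2 (median 53.6) on CAS FAT-40 and 18.5 to 86.6 (median 59.2) on CAS FAT-55, and from 36.7 to 84 (median 59.5) on WPI FAT-20, 30.5 to 81.3 (median 55.7) on WPI FAT-40 and 50.5 to 99.2 (median 80.4) on WPI FAT-55. It rose on CAS FAT-55 (log2 fold change 0.74, SE 0.18, adjusted p = 0.0018) and CAS FAT-40 (log2 fold change 0.74, SE 0.18, adjusted p = 0.0019). On WPI FAT-55 it rose by 0.44, SE 0.17, adjusted p = 0.048, a call lost in 35 of 70 fits that each leave out 1 library, and on WPI FAT-40 the change was 0.01 (adjusted p = 0.98). Acot1 and Acot2 rose on WPI FAT-55 by 1.06 (adjusted p = 0.0047) and 0.73 (adjusted p = 0.0016), with 0.50 (adjusted p = 0.23) and 0.40 (adjusted p = 0.11) on CAS. Acadm and Hadha rose on FAT-55 on both proteins, at 0.33 (adjusted p = 6.8e-05) and 0.29 (adjusted p = 0.0071) on CAS. Cpt1a and Pdk4 stood at 0.12 (adjusted p = 0.18) and 0.79 (adjusted p = 0.2) on CAS FAT-55. Etfa and Acot3 were the 2 members whose groups did not overlap on WPI FAT-55 (beside 0.33% of all genes), and there were 0 on CAS FAT-55 (0.129%).

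Markers of other tissue layers moved with fat in jejunum. The summed adipocyte markers had medians of 35.6 and 76.9 CPM on CAS and WPI FAT-20 and of 0.435 to 0.868 CPM in the other 4 diets, and the mean log2 CPM of the smooth muscle list was 6.47 ± 0.30 on CAS FAT-20 and 5.70 ± 0.63 on CAS FAT-55 (SD). Enterocyte markers averaged 11.32 ± 0.17 and 11.47 ± 0.19 in the same groups. With both of the first scores as covariates, 13 members were called on CAS FAT-55 and 0 on WPI FAT-55, CAS FAT-40 and WPI FAT-40. The adipocyte markers differed between FAT-20 and the other diets, so this fit cannot fully tell fat level and marker scores apart. The share of all genes called in it is not given here. Summed by identifier group, 17 members rose on WPI FAT-55 and 1 on WPI FAT-40, and without WPI FAT-40 replicate 12 the count on WPI FAT-40 was 4.

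**Figure D2:**
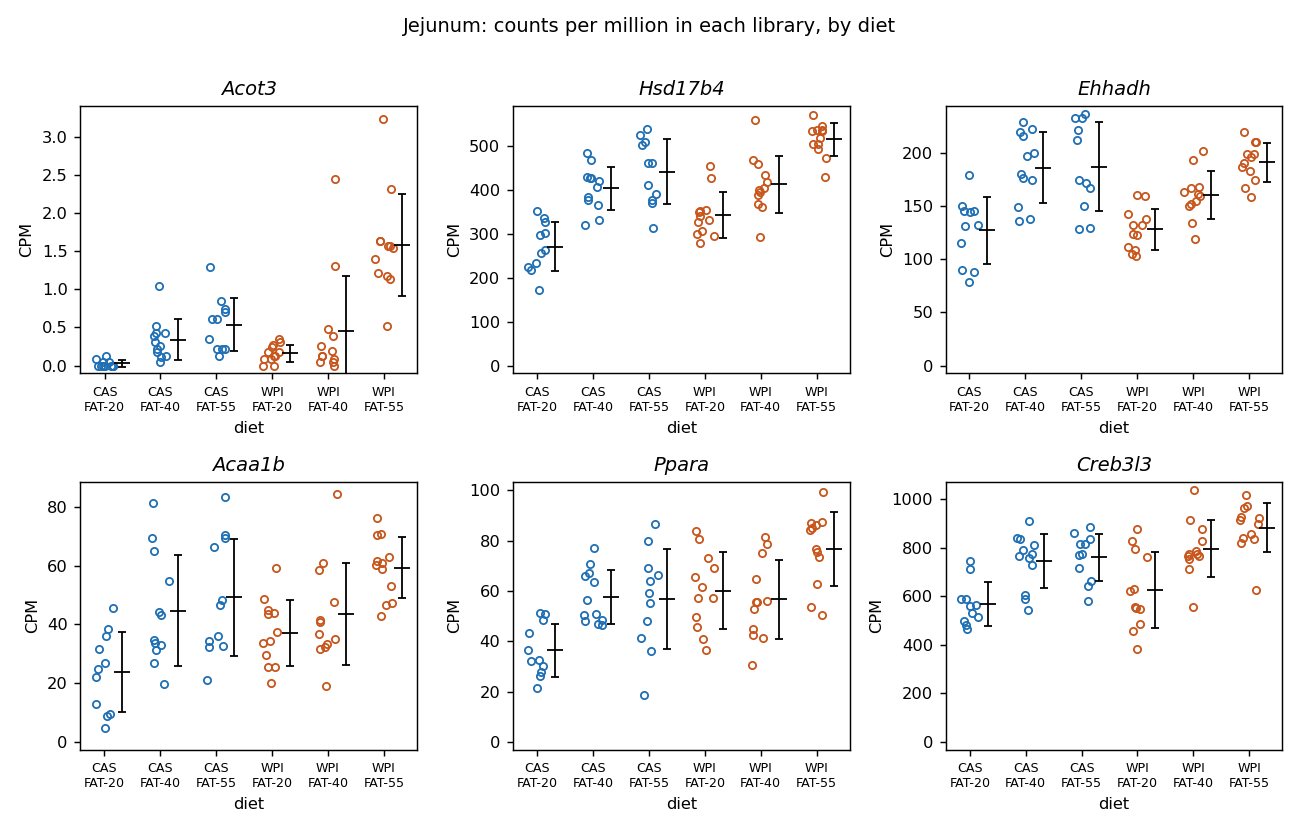
CPM in jejunum (vertical axis, each panel 1 gene) of every mouse by diet (horizontal axis), blue for CAS and orange for WPI, with black bars for the mean ± SD (for Acot3 on WPI FAT-40 the bar runs past the axis). Acot3 is near 0 on FAT-20, and Hsd17b4, Ehhadh and Creb3l3 sit higher on FAT-55 than on FAT-20 with overlap between mice.

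The opposite directions in the 2 tissues were tested in the same mice, as the liver value minus the jejunum value of each of 70 mice in limma over 13965 genes. The response was lower in liver than in jejunum for 30 of 37 members on CAS FAT-55 (beside 21.3% of all genes), 23 on WPI FAT-55 (15.6%), 31 on CAS FAT-40 (16.2%) and 23 on WPI FAT-40 (9.06%). No member had a response called higher in liver. The median difference of the members was -0.80, -0.53, -0.74 and -0.45 on the log2 scale in that order. On CAS FAT-55 the scaling between libraries moved liver and jejunum fold changes apart, and its part in these differences was not tested. Members that both rose in jejunum and fell in liver numbered 17, 9, 14 and 5 of 37. The share of all genes that did both is not given here, so these counts describe the members only. All of these members were called in the difference. That adds little, since they were picked by opposite calls in the same libraries. On CAS FAT-55 the 17 were Creb3l3, Cpt2, Slc25a20, Crat, Acsl1, Acadvl, Acadl, Acadm, Hadha, Acaa2, Decr1, Etfa, Etfb, Etfdh, Ehhadh, Acaa1a and Acot8. Crat, Etfdh and Ehhadh were among them in all 4 comparisons.

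The largest differences between the tissues on CAS FAT-55, in log2, were in Acot3 (-3.85, SE 0.68, adjusted p = 5.6e-06), Ehhadh (-2.36, SE 0.19, adjusted p = 1.1e-14), Acot1 (-2.19, SE 0.42, adjusted p = 2.8e-05), Acaa1b (-1.55, SE 0.28, adjusted p = 9.8e-06) and Acaa2 (-1.18, SE 0.17, adjusted p = 1e-07). On WPI FAT-55, Ehhadh differed by -2.62, SE 0.19, adjusted p = 1.8e-17, and Crat by -1.17, SE 0.18, adjusted p = 9.4e-07. For Ppara the difference was -0.72, SE 0.20, adjusted p = 0.0029 on CAS FAT-55, with a rise in jejunum and no called change in liver, and for Creb3l3 it was -0.84, SE 0.13, adjusted p = 9.2e-07. Hadha differed by -0.88, SE 0.11, adjusted p = 1.7e-09, and Acadm by -0.53, SE 0.10, adjusted p = 1.1e-05. Cpt1a (-0.26, SE 0.13, adjusted p = 0.1) and Pdk4 (-0.07, SE 0.46, adjusted p = 0.92) were not called. The tissue markers given above for jejunum and liver moved in these comparisons too, and their part in the differences was not tested.

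**Figure D3:**
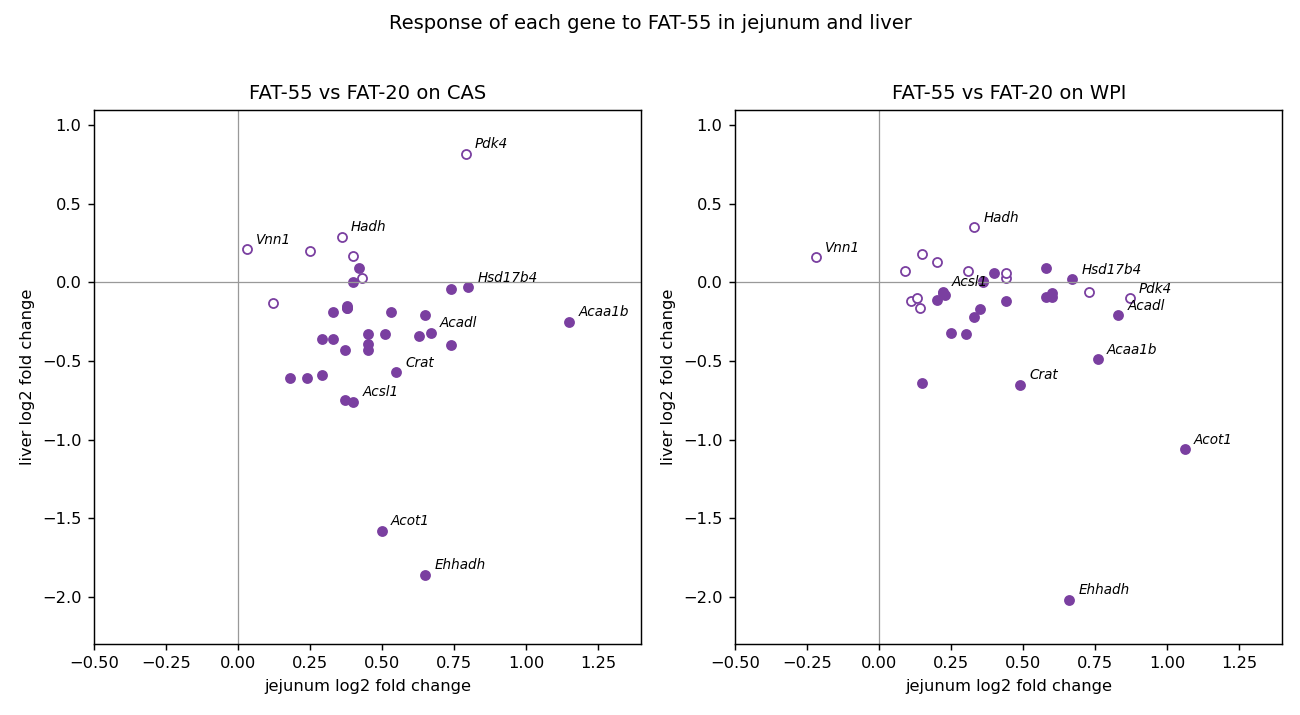
Log2 fold change of FAT-55 against FAT-20 in jejunum (horizontal axis) and in liver (vertical axis) for the members on CAS (left) and WPI (right), with filled points where the difference between tissues was called. Most points lie right of 0 and below 0, Ehhadh lies lowest at -1.86 and -2.02 in liver, and Acot3 lies outside the axis at 4.12 and 3.36 in jejunum.

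Members were also followed mouse by mouse, as the correlation over 70 mice of their jejunum and liver values after the diet mean was taken off each. The median r over the 37 members was 0.05, and 3 members passed a permutation test with adjustment over the 37. Without mouse L5A3, whose library numbers differ, 3 passed and the median r was 0.05. Pex11a had r = 0.50 (Spearman's rho = 0.48, permutation p = 4e-05, adjusted p = 0.0015), and r = 0.46 without the 2 mice farthest from the median. Pdk4 had r = 0.39 (rho = 0.37, permutation p = 0.001, adjusted p = 0.012), and r = 0.32 without the 2 farthest. Acaa1a had r = 0.36 (rho = 0.36, permutation p = 0.00076, adjusted p = 0.012), and r = 0.35 without them. The lowest were Acot1 and Decr2 at r = -0.21 each (permutation p = 0.095 and 0.077, adjusted p = 0.35 and 0.33) and Hadh at r = -0.18 (permutation p = 0.13, adjusted p = 0.37). For Hadh, Spearman's rho was -0.33 (permutation p = 0.0072, not adjusted), and r was -0.32 without the 2 farthest mice. With the mean of each of the 24 identifier groups as 1 value, none of the 37 passed, while r was 0.53 for Pex11a, 0.46 for Pdk4 and 0.50 for Acaa1a (adjusted permutation p = 0.22 for each).

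**Figure D4:**
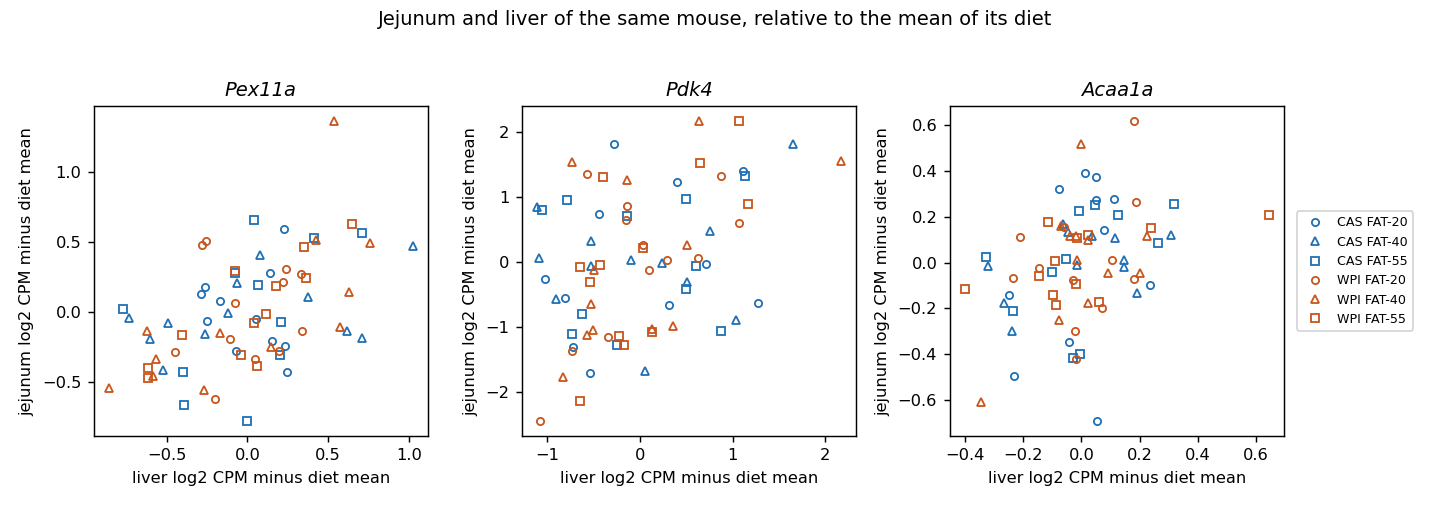
Liver (horizontal axis) against jejunum (vertical axis) for Pex11a, Pdk4 and Acaa1a, as log2 CPM minus the mean of the diet, with 1 point per mouse. The 3 clouds rise from left to right, with r of 0.50, 0.39 and 0.36 over 70 mice.

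The protein comparison asked whether WPI differed from CAS at a given fat level. In jejunum 6 members were higher on WPI at FAT-20 (beside 2.66% of all genes), namely Ppara, Acads, Acadvl, Eci1, Hsd17b4 and Acot4. At FAT-40 there were 0 (0.571% called in either direction, and 3 members at an unadjusted p under 0.05; DESeq2 also called 0). At FAT-55 they were Acot3, Acadl and Acot4 (0.889%). Averaged over fat, 13 were higher and none lower (6.5%), led by Acot3, Acot4, Acadl, Ppara and Hsd17b4. In the same comparison 5 of 9 enterocyte markers were higher (median log2 fold change 0.23, against 0.14 for the members) and 3 of the 5 macrophage markers tested were lower, as 3 of 5 were at FAT-20, and their part in the result was not tested. Ppara at FAT-20 ran from 21.4 to 51.4 (median 32.5) on CAS FAT-20 against 36.7 to 84 (median 59.5) on WPI FAT-20, and was higher on WPI (log2 fold change 0.78, SE 0.18, adjusted p = 0.0042). Acot4 was higher by 0.69 (adjusted p = 0.0012) at FAT-20 and 0.64 (adjusted p = 0.0035) at FAT-55, and Acot3 by 1.58 (adjusted p = 0.018) at FAT-55. The summed adipocyte markers had the higher median on WPI at FAT-20, as given above, and with the marker scores as covariates 12 members were called at FAT-20 and 1 at FAT-40. Summed by identifier group, 0 were called at FAT-20 or FAT-55 and 4 averaged over fat, with 10 at FAT-20 by DESeq2. Without CAS FAT-20 replicate 9 the count at FAT-20 was 10, and without WPI FAT-55 replicate 2 the count at FAT-55 was 1.

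In liver the members differed between the proteins on the diets with more fat. At FAT-20, 0 members differed (edgeR, beside 0.512% in either direction; 2 at an unadjusted p under 0.05, and 0 by DESeq2). At FAT-40, 4 were higher on WPI (3.85%), namely Acadvl, Hadha, Hadhb and Eci2. At FAT-55, 15 were higher (7.07%) and 1 lower (7.43%). Averaged over fat, 9 were higher (7.1%) and 2 lower (7.56%). At FAT-55, 3 of 8 hepatocyte markers were higher too and none lower, with a median log2 fold change of 0.19 against 0.18 for the members, and their part in the result was not tested. Acsl1 at FAT-55 ran from 1299 to 2697 CPM (median 1848) on CAS FAT-55 and 2084 to 2873 (median 2337) on WPI FAT-55 (log2 fold change 0.48, SE 0.12, adjusted p = 0.0038). Eci2 was higher by 0.35 (adjusted p = 0.0028), Acaa2 by 0.32 (adjusted p = 0.0015), Hadhb by 0.27 (adjusted p = 0.0023) and Creb3l3 by 0.26 (adjusted p = 0.0013) at FAT-55. Pdk4 was the 1 member lower on WPI, at 8.84 ± 3.98 CPM (SD, n = 12) against 22.1 ± 11.5 CPM (SD, n = 11) (log2 fold change -1.18, SE 0.32, adjusted p = 0.0084). Averaged over fat, Pdk4 and Acot2 were lower, at -0.54 (adjusted p = 0.038) and -0.37 (adjusted p = 0.049). Without WPI FAT-55 replicate 2 the count at FAT-55 was 11. With a random effect for identifier group it was 10, and with sums by identifier group 0.

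Whether the fat response itself differed between the proteins was tested as an interaction. In liver the FAT-55 response was higher on WPI than on CAS for 7 members (beside 3.0% of all genes), namely Acsl1, Eci2, Creb3l3, Acaa2, Acot8, Hadhb and Etfdh, and lower for none. Of 8 hepatocyte markers 1 was higher in this test, with a median difference of 0.28 against 0.15 for the members, and their part was not tested. Acsl1 stood at -0.76 on CAS and -0.06 on WPI, a difference of 0.69 (adjusted p = 0.0069) by edgeR. Eci2 stood at -0.61 and -0.10, a difference of 0.52 (adjusted p = 0.0052). Creb3l3 stood at -0.33 and 0.09, a difference of 0.42 (adjusted p = 0.0015). The FAT-40 response was higher on WPI for Hadhb, by 0.35 (adjusted p = 0.024), and Eci2, by 0.50 (adjusted p = 0.017), beside 0.877% of all genes. Both were lost with an estimated correlation within identifier groups (adjusted p = 0.17 and 0.13). For Ehhadh the difference between the proteins on FAT-55 was not called (-0.16, SE 0.25, adjusted p = 0.76). A random effect for identifier group left 3 calls on FAT-55 (Acsl1, Eci2 and Creb3l3), sums by identifier group left 0 for both fat levels, and leaving out 1 library gave 3 (without CAS FAT-20 replicate 3) to 9. In jejunum 0 members passed for FAT-55 (edgeR, 0.0% of all genes; 3 at an unadjusted p under 0.05) or FAT-40 (0.0118%; 4 at an unadjusted p under 0.05), and DESeq2 gave 0 and 0.

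**Figure D5:**
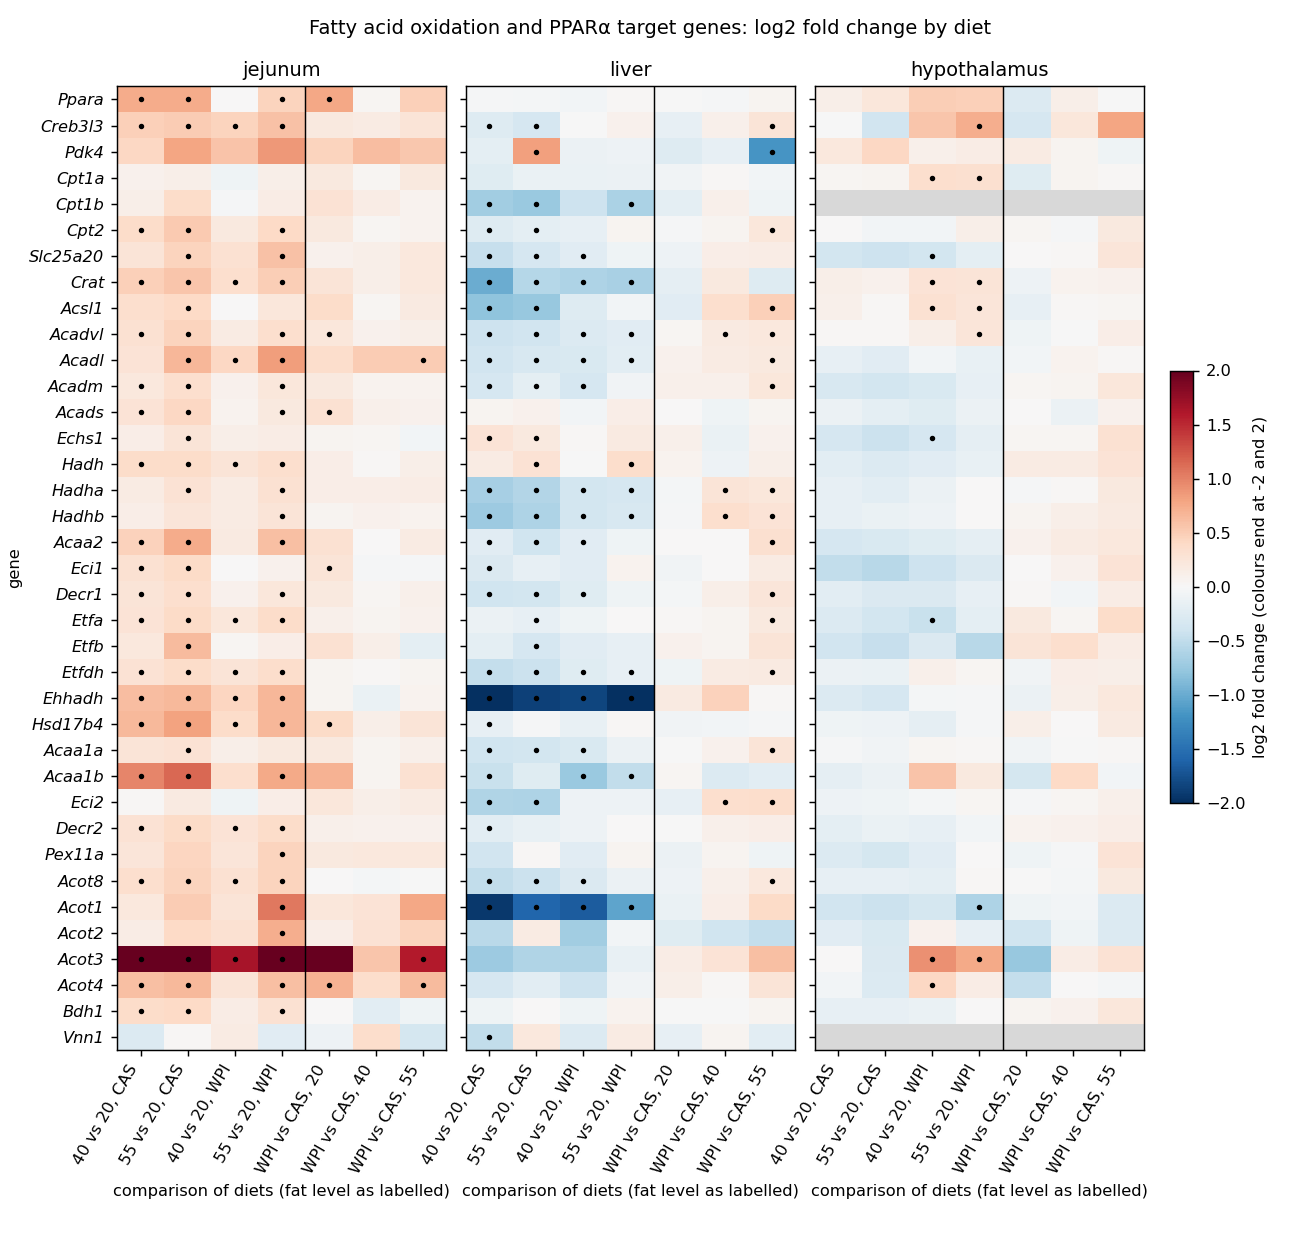
Log2 fold change (colour, ending at -2 and 2) of the 37 members (rows) in the 4 fat comparisons and 3 protein comparisons (columns) in jejunum, liver and hypothalamus, with a dot where called and grey where not tested. The fat columns are mostly red (higher) in jejunum and blue (lower) in liver, and few cells in hypothalamus carry a dot.

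In hypothalamus 35 members could be tested, since Cpt1b and Vnn1 were too low, and 24 were called in none of the 4 fat comparisons. On WPI FAT-55, 6 rose and 1 fell, beside 29.5% of all 14830 genes higher and 5.84% lower, and on WPI FAT-40, 5 rose and 3 fell, beside 38.0% higher and 14.6% lower. With edgeR on the recovered reads 2 rose and 2 fell on WPI FAT-55, and 5 rose and 16 fell on WPI FAT-40. The share of all genes called by edgeR in this tissue is not given here. With a random effect for identifier group 3 and 4 were called. Thalamus markers (4 of 7 higher, median 0.47) and astrocyte markers (4 of 7 higher, median 0.20) moved on WPI FAT-55 too, and on WPI FAT-40 5 of 7 astrocyte markers were higher and 1 lower. With a thalamus score as a covariate, 6 members rose and 1 fell on WPI FAT-55, 5 rose and 3 fell on WPI FAT-40, and 1 fell on CAS FAT-55. The part of the astrocyte markers was not tested. On CAS, limma called 0 members on FAT-55 (2.33% in either direction; 15 at an unadjusted p under 0.05) and 0 on FAT-40 (0.236%; 9), while edgeR on the recovered reads called 9 and 4. All genes shifted in median by 0.10 and 0.12 on WPI FAT-55 and FAT-40, so the changes below are read against that. On the log2(value + 1) scale, Acot3 rose on WPI FAT-55 by 0.76, SE 0.24, adjusted p = 0.012. Creb3l3 rose there by 0.73, SE 0.26, adjusted p = 0.025, and Cpt1a by 0.32, SE 0.09, adjusted p = 0.0043. Acot1 fell there (log2 fold change -0.61, SE 0.15, adjusted p = 0.0017), and Acsl1, Crat and Acadvl rose by 0.24, 0.26 and 0.24. On WPI FAT-40, Acot3, Acot4, Cpt1a, Acsl1 and Crat rose, by 0.92 to 0.27 in that order, and Etfa (-0.44), Slc25a20 (-0.36) and Echs1 (-0.34) fell. With the GC and length trend of each library removed, Crat stood at -0.01 and Etfa at 0.10 in this comparison.

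Cpt1a, known from work on hypothalamic nutrient sensing, ran from 19.2 to 48.5 CPM (median 39.1) on WPI FAT-20 and 30.8 to 51.7 (median 45.3) on WPI FAT-55, and the groups overlapped. Creb3l3 ran from 0.205 to 1.01 CPM (median 0.457) on WPI FAT-20 and 0.338 to 1.30 (median 0.929) on WPI FAT-55, while it averaged 729 CPM in jejunum. Enterocyte markers were lower on WPI FAT-20 than on WPI FAT-55 in these libraries. Fabp2 was at 0 in 10 of 11 libraries on WPI FAT-20 and at 0.268 to 1.12 CPM on WPI FAT-55. The summed enterocyte list ran from 0.434 to 4.57 CPM on WPI FAT-20 and from 6.03 to 8.29 on WPI FAT-55, and its part in the Creb3l3 value was not tested. Without the 4 libraries that stood apart, 3 members were called on WPI FAT-40 and 1 on CAS FAT-55. With the GC and length trend of each library removed, 4 were called on WPI FAT-55 and 2 on CAS FAT-55. Of the 16 limma calls in this tissue, 8 were kept without those 4 libraries. A random effect for identifier group kept 7, and removal of that trend kept 7. Leaving out CAS FAT-20 replicate 9 gave 10 on CAS FAT-55, and leaving out WPI FAT-20 replicate 10 gave 15 on WPI FAT-40. Between the proteins, 1 member was lower on WPI averaged over fat (1.83% of all genes), Acot2 at -0.25 (adjusted p = 0.013), a call lost with an estimated correlation within identifier groups (adjusted p = 0.4). At the 3 fat levels, from low to high, limma called 0 members (1.01%, 0.0% and 5.92% in either direction; 5, 1 and 10 at an unadjusted p under 0.05), and without the libraries that stood apart 9 at FAT-55. The interactions called 0 for FAT-55 (3.5%; 5 unadjusted) and 0 for FAT-40 (0.0742%; 6 unadjusted) by limma.

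Wider lists of the same pathways hold genes that are no members. On CAS FAT-55, 14.4% of all genes rose and 13.3% fell in jejunum. There, of 29 other peroxisome genes 22 rose and 1 fell on CAS FAT-55, with Cat (catalase) at 0.84, Abcd3 at 0.66 and Scp2 at 0.53 on the log2 scale. Of 13 genes of ketone body and carnitine metabolism 8 rose and 1 fell, with Acat1 at 0.57, Crot at 0.78 and Bdh2 at 1.64. Of 27 other known PPARα targets 14 rose and 7 fell, among them Retsat (retinol saturase) at 1.26, Aldh3a2 at 0.77 and Cd36, a fatty acid transporter, at 1.03. Of 24 other fatty acid oxidation enzymes 7 rose and 2 fell, with Acot12 at 1.37. Of 15 PPAR receptors, partners and coactivators 2 rose, Nr1h3 at 0.44 and Pparg at 0.67, a share near that of all genes. On WPI FAT-55, Plin4, a lipid droplet protein of adipocytes, fell by 3.01 in jejunum, where the adipocyte markers were lower as given above.

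In liver, where 22.6% of all genes rose and 20.7% fell on CAS FAT-55, the PPARα target list held large falls: of 30 tested 10 rose and 11 fell, led by the ω-hydroxylases Cyp4a31 at -3.18 and Cyp4a10 at -1.62 and by Retsat at -1.36, which rose in jejunum. Of 29 other peroxisome genes 6 rose and 10 fell, with Ephx2 at -0.70 and Hao2 at 5.40. Of 22 other fatty acid oxidation enzymes 9 rose and 5 fell, with Acad12 at 1.22 and Acot11 at 1.64. Of 13 ketone body and carnitine genes 2 rose and 4 fell. Of 16 PPAR receptors and partners 2 rose and 6 fell, with Pparg at 1.68. On WPI FAT-55, Cyp4a31 stood at -2.74, Cyp4a14 at -1.65, Retsat at -0.87 and Pparg at 0.91. On CAS FAT-55 the called genes of each of these 5 lists went in both directions in liver. On WPI FAT-55 in liver, 14.6% of all genes rose and 12% fell. There, 11 of 29 other peroxisome genes rose and 1 fell, and 8 of 22 other fatty acid oxidation enzymes rose and 3 fell. Of 30 other PPARα targets 5 rose and 5 fell, and of 16 PPAR receptors and partners 2 rose and 2 fell. Of 13 ketone body and carnitine genes 2 rose and 0 fell. In jejunum 19 of 29 peroxisome genes rose and 1 fell on WPI FAT-55, beside 14.2% and 16.6% of all genes. There, 14 of 27 other PPARα targets rose and 7 fell, and 8 of 24 other fatty acid oxidation enzymes rose and 7 fell. Of the 13 ketone body and carnitine genes 7 rose and 1 fell, and of the 15 PPAR receptors and partners 6 rose and 2 fell. The part of the tissue markers in these lists was not tested.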

How the data were processed

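Libraries (70 jejunum, 70 liver, 67 hypothalamus, all from total RNA) were grouped by the tissue and diet in the labels. The submitters' processing notes name STAR, Trim Galore 0.61, cutadapt, FastQC, DESeq2 1.24.0 and the build GRCm38, and strand setting and annotation release are not given in the sources used here. The jejunum and liver tables hold counts per gene that the authors deposited unscaled. Entries that name no gene were left out (multimapping reads 8.0% and 7.71%, ambiguous reads 5.23% and 5.2% in jejunum and liver). The deposited hypothalamus table holds a signal: each count over its library's size factor. Of its positive values 100% came within 0.05 of a whole read once multiplied back.

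Jejunum and liver were tested with the quasi-likelihood test of edgeR 4.0.16 (R 4.3.3; filterByExpr with minimum count 10 and minimum total 15; TMM; 1 coefficient per diet). For hypothalamus the plan was the same test on counts, or limma on counts divided by size factors. The table held the latter, so limma 3.58.1 was used with a trend on log2(value + 1), keeping genes that reached 10 in 10 or more libraries. An alternative was edgeR on the recovered reads. The difference between liver and jejunum was tested with limma within mice. Correlations used 100000 permutations (scipy 1.17.1). p-values were adjusted by Benjamini-Hochberg over all genes of 1 comparison, with no adjustment across the 10 comparisons of a tissue. Each library is a separate mouse identifier, so the spread is between mice.

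The members and all gene lists were chosen with earlier results of these data known, so their counts beside the shares of all genes are descriptions. Test values are given for up to 5 called members with the largest rise and 5 with the largest fall per comparison, for Ppara, Creb3l3, Cpt1a, Pdk4, Acadm, Hadha, Ehhadh and Acot1, for up to 3 genes per wider list, for the 3 highest and lowest correlations, and for differences singled out below after their values were seen. Alternatives were DESeq2 1.42.0, RLE scaling, no filter, other pseudocounts, marker scores as covariates, and a random effect or sums for identifier groups. The tissue difference, the fits without 1 library or without libraries that stood apart, and the removal of a GC and length trend were added after seeing the data. The gene fits were checked on simulated data.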

Additional observations from a re-analysis of the deposited data

Results flagged for a closer look

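Within the 10 hypothalamus libraries on CAS FAT-20, 5 members had a single mouse far from the rest of its group. The gap test was run on 35 groups of values, and chance alone would set apart about 1 in 20 if these were independent. The 5 given here share the same 10 libraries, so they are not independent. Pdk4 was highest in replicate 7 at 21.3 CPM, Slc25a20 highest in replicate 6 at 33.4 CPM, Etfa highest in replicate 6 at 82.3 CPM, Acadvl lowest in replicate 6 at 20.6 CPM, and Bdh1 highest in replicate 4 at 48.3 CPM. Replicate 6 is 1 of the 4 hypothalamus libraries that stood apart over all genes.

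In liver the FAT-55 response was higher on WPI than on CAS by a test of the difference itself (edgeR). On the log2 scale the difference was 0.69 for Acsl1, 0.52 for Eci2, 0.42 for Creb3l3, 0.31 for Acaa2, 0.31 for Acot8, 0.29 for Hadhb and 0.26 for Etfdh. For the FAT-40 response it was 0.50 for Eci2 and 0.35 for Hadhb, and both calls were lost with an estimated correlation within identifier groups (adjusted p = 0.13 and 0.17). That fit kept 3 of the 7 calls on FAT-55, those of Acsl1, Eci2 and Creb3l3, and sums by identifier group kept none for either fat level. The calls of Acaa2, Acot8, Etfdh and Hadhb on FAT-55 were lost in 26, 11, 7 and 6 of 70 fits that each leave out 1 library.

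Between the tissues, the response was lower in liver than in jejunum of the same mice for 30 members on CAS FAT-55, 23 on WPI FAT-55, 31 on CAS FAT-40 and 23 on WPI FAT-40 (limma).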

How the results depend on the processing

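No paired analysis was possible because the labels give no replicate numbers that would pair mice across diets, while liver and jejunum were compared within mice. Counts of called members moved by over 1.5 times, or from or to 0, in the cases given here, and the cause was not tested. The share of all genes called in these other fits is not given, so the counts describe the members only. In jejunum, marker scores as covariates gave 13 (CAS FAT-55), 0 (WPI FAT-55, CAS FAT-40 and WPI FAT-40), 12 (WPI against CAS at FAT-20) and 1 (at FAT-40). Sums by identifier group gave 17 on WPI FAT-55, 1 on WPI FAT-40, 4 for the proteins averaged over fat, and 0 at FAT-20 and FAT-55. A random effect gave 6 on WPI FAT-40, and DESeq2 gave 10 at FAT-20. Leaving out 1 library gave 4 (without WPI FAT-40 replicate 12) to 13 on WPI FAT-40, 4 to 10 (without CAS FAT-20 replicate 9) for the proteins at FAT-20 and 1 (without WPI FAT-55 replicate 2) to 4 at FAT-55. In liver, sums gave 7 on WPI FAT-55, 4 on WPI FAT-40, 1 for the proteins averaged and at FAT-40, and 0 at FAT-55 and for both interactions. A random effect gave 5 averaged, 10 at FAT-55, and 3 and 0 for the interactions on FAT-55 and FAT-40. No filter gave 6 averaged, and 3 and 1 for the interactions, and DESeq2 gave 5 for the FAT-40 interaction. Leaving out 1 library gave 7 (without CAS FAT-20 replicate 2) to 12 averaged, 3 (without CAS FAT-20 replicate 3) to 9 for the FAT-55 interaction and 2 to 5 (without CAS FAT-20 replicate 6) for the FAT-40 interaction. In hypothalamus, edgeR on recovered reads gave 9 (CAS FAT-55), 4 (WPI FAT-55), 4 (CAS FAT-40) and 21 (WPI FAT-40). A random effect gave 3 on WPI FAT-55, 4 on WPI FAT-40 and 0 averaged over fat. With the GC and length trend removed there were 2 on CAS FAT-55, 4 on WPI FAT-55, and 2 for the proteins averaged and at FAT-55. Without the libraries that stood apart there were 1 on CAS FAT-55, 3 on WPI FAT-40, 9 for the proteins at FAT-55 and 4 for the FAT-55 interaction, and a thalamus score gave 1 on CAS FAT-55. Leaving out 1 library gave 0 to 10 (without CAS FAT-20 replicate 9) on CAS FAT-55, 5 (without WPI FAT-20 replicate 4) to 15 (without WPI FAT-20 replicate 10) on WPI FAT-40, 0 to 4 (without CAS FAT-20 replicate 6) for the proteins at FAT-20, 0 to 1 (without CAS FAT-40 replicate 5) at FAT-55, and 0 to 2 (without CAS FAT-20 replicate 6) for the FAT-55 interaction. Over the means of 24 identifier groups 0 correlations passed, with r of 0.53 for Pex11a, 0.46 for Pdk4 and 0.50 for Acaa1a. Log2 fold changes of called members changed sign for Ppara (-0.11), Decr1 (-0.00) and Pex11a (-0.07) in jejunum on WPI FAT-55 with the marker scores, and for Crat (-0.01) and Etfa (0.10) in hypothalamus on WPI FAT-40 without the GC and length trend. None of these was called in those fits, so they are lost calls and no opposite changes. The adjusted p was 0.88 for Ppara and 0.92 for Pex11a (edgeR), and 0.89 for Crat and 0.19 for Etfa (limma). Of 109 calls in jejunum, 115 in liver and 16 in hypothalamus, 23, 19 and 5 were lost without some library and none reversed, and with sums by identifier group 60 of the 109 and 52 of the 115 were still called. Few reads limit the members under 1 CPM on average: Acot3 and Cpt1b in jejunum, Cpt1b in liver, and Creb3l3, Cpt1b, Etfb, Acaa1b, Acot3 and Vnn1 in hypothalamus. For Cpt1b and Etfb the counts are also uncertain from the exon bases shared with same-strand genes, whatever the depth.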
